A study of Mus musculus with 19 samples.

Results

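The 10 dendritic cell genes described here are Siglech, Ccr9, Tcf4, Clec9a, Xcr1, Batf3, Irf8, Zbtb46, Itgax and Cd209a, taken by symbol from the 34432 genes of a bone marrow RNA sequencing table. They mark plasmacytoid dendritic cells (Siglech, Ccr9, Tcf4) and type 1 conventional dendritic cells (Clec9a, Xcr1, Batf3). Zbtb46, Irf8 and Itgax mark conventional dendritic cells or their forerunners more broadly. Cd209a was included as a gene of monocyte-derived or other myeloid dendritic cells. Within genotypes, however, its log2 levels here had a Pearson r of 0.83 with Siglech and -0.017 with monocyte markers. Of the 10 genes, 9 had a mean of at least 10 normalized counts (gene reads divided by a size factor of the library) and were tested, among 13976 genes in all. Batf3 fell below that filter.

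Dendritic cells sample antigen and present it to T cells. In the marrow they arise from progenitors that respond to the growth factor Flt3 ligand, and transcription factors divide them into branches. Tcf4 encodes the E protein that directs plasmacytoid cells, which produce type I interferon, while Irf8 and Batf3 act together in the type 1 conventional branch, which takes up dead cells and presents their antigens to CD8 T cells. Several of the genes are also read in other marrow cells: Irf8 and Tcf4 in B cells and Irf8 in monocytes, Itgax in macrophages and NK cells, Ccr9 in T lineage cells and Zbtb46 in erythroid progenitors and endothelium.

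Marrow was flushed from tibiae and femurs of untreated C57BL/6 mice aged 8 weeks, and 19 libraries of polyadenylated RNA were compared. Cdk8 and Cdk19 encode paired kinases of the Mediator complex, which links transcription factors to RNA polymerase II. WT mice (3 libraries) carried no engineered allele, VAV mice (4) carried the Vav-iCre transgene alone, CDK8KO mice (4) carried Cdk8 flox/flox with Vav-iCre, CDK19KO mice (4) were Cdk19 null, and DKO mice (4) combined Cdk8 flox/flox, Vav-iCre and Cdk19 null. Vav-iCre makes Cre recombinase in blood-forming cells and their progeny, so Cdk8 was targeted there, while the Cdk19 allele was null in every cell. CDK8KO and DKO are therefore set beside VAV, and CDK19KO beside WT. DKO differs from CDK19KO by Vav-iCre as well as by the Cdk8 allele, and these cannot be told apart. The labels do not say that each library came from a separate mouse, so p-values measure only the spread between libraries, which may be technical.

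Libraries held 14881701 to 33010241 reads assigned to genes. Cdk19 was at 34.5% of WT in CDK19KO and at 32.0% of VAV in DKO, whereas Cdk8 was at 102% of VAV in CDK8KO and at 80.3% in DKO. Counts over the whole gene do not check the removal of a floxed exon, so genotypes are named as labelled. Neutrophil, B cell, erythroid and monocyte markers of marrow were present in all libraries, and none of the listed markers was at 0 throughout. Erythroid markers took 0.118 to 3.61% of reads, highest in CDK8KO_1 and VAV_3 (3.25%), and skeletal muscle markers reached 0.0871% in CDK19KO_4 and 0.0246% in DKO_4.

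In the DKO libraries Cd209a fell against VAV and against each single genotype, and Ccr9 rose against CDK19KO without passing the threshold against VAV or CDK8KO. Cd209a, which encodes a C-type lectin related to human DC-SIGN, was lower in all 4 DKO libraries than in any library of VAV, CDK8KO or CDK19KO. The share of all tested genes that stood apart in this way was not counted. Ccr9, the chemokine receptor of plasmacytoid and gut-homing cells, was at 776 to 955 normalized counts in 3 DKO libraries and at 181 to 482 in the 15 libraries of the other genotypes, with the remaining DKO library at 283. Siglech, the plasmacytoid surface lectin, had nearly equal means in DKO (835 ± 310, SD, n = 4) and VAV (793 ± 107, SD, n = 4). In whole marrow, fewer cells of a type and less RNA per cell cannot be told apart.

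The sequences before the start sites of these 3 genes are shown because Cd209a and Ccr9 each passed a test in DKO, in opposite directions, and Siglech passed none. Each is 250 bases before the RefSeq start and the first 10 after it, 5′ to 3′ on the gene's strand (GRCm38.p6), at chr8:3748975-3749234 (minus) for Cd209a, chr9:123766961-123767220 (plus) for Ccr9 and chr7:55767934-55768193 (plus) for Siglech. Capitals mark matches, on either strand, to CANNTG (the E-box, the kind of site bound by E proteins such as the Tcf4 product), TGANTCA (AP-1, bound by Batf family dimers), GAGGAA (a PU.1 core) or the composite site of PU.1 with Irf8, which joins a PU.1 core to an Irf half-site.
Cd209a: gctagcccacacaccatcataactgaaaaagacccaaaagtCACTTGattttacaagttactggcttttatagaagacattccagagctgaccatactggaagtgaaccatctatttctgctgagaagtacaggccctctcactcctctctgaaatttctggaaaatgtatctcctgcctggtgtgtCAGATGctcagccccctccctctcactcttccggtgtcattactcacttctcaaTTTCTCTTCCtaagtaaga
Ccr9: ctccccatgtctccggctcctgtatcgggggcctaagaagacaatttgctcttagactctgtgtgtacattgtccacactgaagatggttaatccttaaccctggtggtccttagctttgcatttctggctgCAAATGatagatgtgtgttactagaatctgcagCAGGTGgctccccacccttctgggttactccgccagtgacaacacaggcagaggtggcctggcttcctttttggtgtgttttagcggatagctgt
Siglech: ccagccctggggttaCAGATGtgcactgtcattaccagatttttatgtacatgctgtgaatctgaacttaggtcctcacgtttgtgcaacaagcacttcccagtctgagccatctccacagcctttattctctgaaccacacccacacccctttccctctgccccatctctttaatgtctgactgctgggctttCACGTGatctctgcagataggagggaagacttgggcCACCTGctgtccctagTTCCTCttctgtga
Cd209a held the composite motif across its start, beginning 9 bases before it, as TTTCTCTTCC on the printed strand, along with 2 E-boxes. Ccr9 held 2 E-boxes, and Siglech held 3 E-boxes and a PU.1 core that began 4 bases before its start. Promoters were found in RefSeq for 9 of the 10 genes, 10 promoters in all with 2 for Irf8. Over the full windows of 250 bases before to 50 after the start, an E-box was in 9 of the 10 (72.3% of all 32817 promoters in the table), AP-1 in 2 (Zbtb46 and Itgax; 7.81% of all), the composite in 1 (Cd209a; 2.72% of all) and the PU.1 core in 2 (Batf3 and Siglech; 28.3% of all). These are letter matches and not measured binding sites.

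Per kilobase of mean coding transcript and per M reads (RPKM computed from the recovered reads), the members spanned from Irf8 at 71.8 and Tcf4 at 60.0 through Siglech at 22.4, Cd209a at 6.18, Itgax at 5.14, Ccr9 at 4.58, Clec9a at 3.41 and Zbtb46 at 2.32 to Xcr1 at 0.224 and Batf3 at 0.143, as means of the 19 libraries. With the length of all annotated exons in place of the mean transcript, Siglech (11.0) stood above Tcf4 (6.38) and Clec9a (1.74) above Ccr9 (1.60). On the transcript scale, the SDs over libraries were 12.7 for Irf8, 10.7 for Tcf4, 5.41 for Siglech, 3.23 for Cd209a, 2.89 for Ccr9 and 1.20 for Zbtb46. The steps from Irf8 to Tcf4, between neighbours from Cd209a down to Zbtb46, and from Xcr1 to Batf3 were each smaller than the larger SD of the pair.

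**Figure D1:**
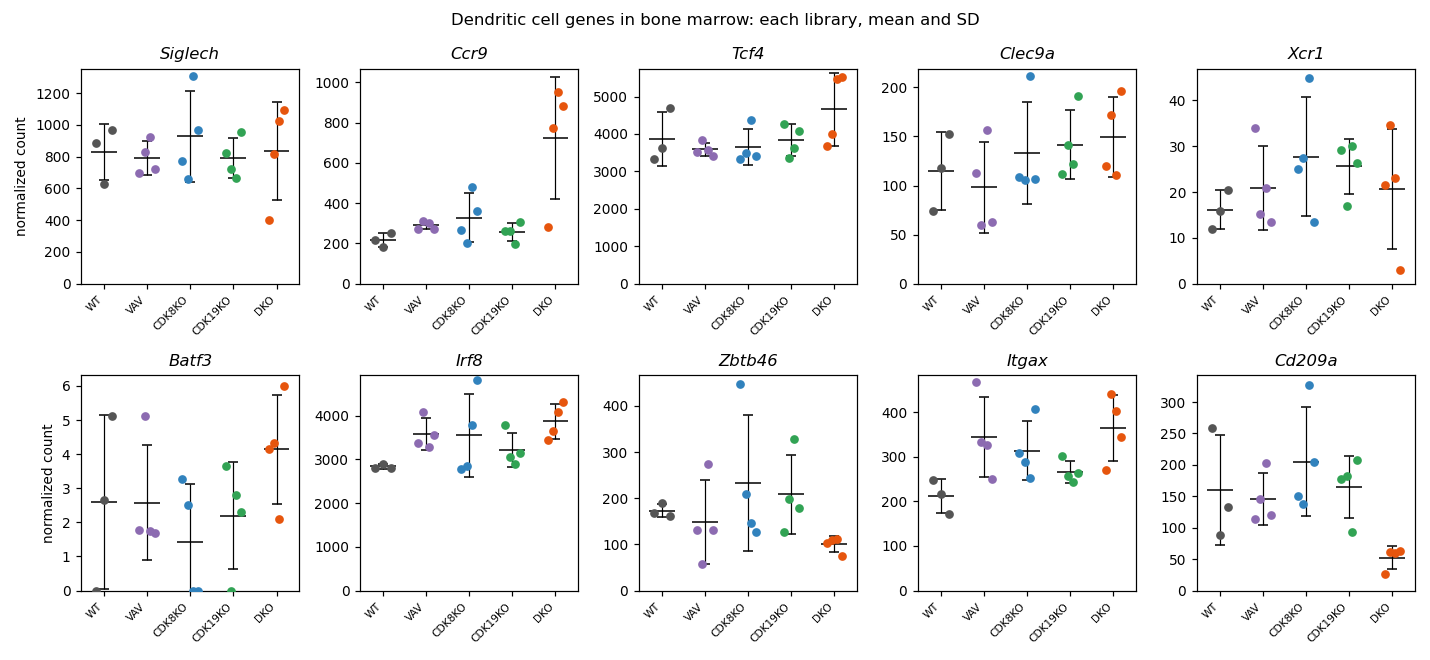
Normalized counts (vertical axes, from 0) of the 10 dendritic cell genes in each library (points), by genotype, with the mean (bar) and SD (whiskers) of 3 WT libraries and 4 of each other genotype. DKO libraries lie lowest for Cd209a, and 3 of 4 lie highest for Ccr9, with the fourth at 283.

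Cd209a lies on chromosome 8 at 3743397 to 3748984 (GRCm38/mm10, minus strand). Its normalized counts were 25.7, 61.5, 60.0 and 62.9 in DKO, 178, 182, 93.6 and 208 in CDK19KO, and 150, 139, 327 and 205 in CDK8KO. They were 113, 146, 203 and 121 in VAV and 259, 89.1 and 133 in WT. All 4 DKO libraries were below all 15 others, and the other 4 genotypes overlapped one another. How many of all tested genes stood apart in this way was not counted. With WT in place of VAV as the control, the fall in DKO did not pass the threshold in limma.

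Against VAV, Cd209a fell in DKO by 1.50 ± 0.37 (SE) on the log2(normalized count + 1) scale, with a limma adjusted p of 0.0458. It fell by 1.94 ± 0.37 against CDK8KO (limma adjusted p 0.0092) and by 1.66 ± 0.37 against CDK19KO (limma adjusted p 0.0224). Cd209a was the only 1 of 9 tested members called lower in each of these comparisons. Zbtb46, Xcr1 and Siglech also had negative estimates in each, none past the threshold. Of all tested genes, 0.694%, 0.651% and 0.658% were called lower and 1.52%, 1.7% and 2% were called in either direction. The 3 comparisons share the DKO libraries. The call against VAV was at the edge of the threshold: it passed in 6 of 19 limma fits that left out 1 library (WT_1, WT_2, CDK8KO_1, CDK8KO_2, CDK8KO_3 or CDK19KO_3) and missed it without any of the other 13. Estimates ran from -1.61 to -1.19 and adjusted p from 0.0337 to 0.118, the highest without DKO_1. Against CDK8KO it passed in all 19, and against CDK19KO in 15, missing it without CDK19KO_1, CDK19KO_2, CDK19KO_4 or DKO_1 (limma adjusted p 0.0603, 0.0735, 0.0794 and 0.0683).

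Neither single genotype moved Cd209a past the threshold. The difference was 0.44 ± 0.37 in CDK8KO against VAV (limma adjusted p 0.701) and 0.12 ± 0.40 in CDK19KO against WT (limma adjusted p 1). The interaction, which asks whether Cdk19 loss had another effect where Cdk8 was deleted, was -2.07 ± 0.54 with a limma adjusted p of 0.21. It also holds any change in the Cdk19 effect by Vav-iCre, which DKO and CDK8KO carried and CDK19KO and WT did not. DESeq2 gave the same interaction an adjusted p of 0.0379, in a fit that called 0.701% of all genes. No member passed it in limma, where 0.15% of all genes did and 0.0572% were called lower.

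Of the 7 genes of the Cd209 family, 4 were tested, and Cd209a and Cd209d fell in DKO while Cd209c and Cd209f did not pass. Cd209d, a neighbouring lectin also called SIGNR3, was at 2.34 ± 2.22 normalized counts in DKO (SD, n = 4), against 24.0 ± 9.95 in VAV, 31.8 ± 16.5 in CDK8KO, 20.2 ± 10.3 in CDK19KO and 26.0 ± 14.6 in WT. It fell by 3.11 ± 0.57 against VAV (limma adjusted p 0.00722), and the differences from CDK8KO and CDK19KO were -3.43 and -2.80 (limma adjusted p 0.00325 and 0.0144). Cd209c stood at 91.4 ± 7.2 in DKO and 86.6 ± 35.6 in VAV, and Cd209f at 44.9 ± 16.1 and 50.6 ± 31.4. The genes of this family are related copies, and reads that fit more than one could be divided between them by the authors' counting.

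Over the 19 libraries, the tested genes whose log2 levels were most like those of Cd209a were Cd209d (Pearson r 0.92), Klra4 (0.85), Ncr1 (0.84) and Egr1 (0.84). After subtraction of genotype means, r was 0.77, 0.58, 0.70 and 0.65. Klra4 encodes an NK cell receptor, Ncr1 the NK receptor NKp46, and Egr1 an immediate early transcription factor. Klra4 differed between DKO and VAV by -2.36 ± 0.38 (limma adjusted p 0.0024) and Egr1 by -1.45 ± 0.30 (limma adjusted p 0.0182). The libraries share their scaling, and these values are a description.

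Ccr9 lies on chromosome 9 at 123678439 to 123784330 (plus strand). Its normalized counts in DKO were 283, 776, 955 and 881. They were 262, 260, 197 and 304 in CDK19KO and 266, 202, 482 and 360 in CDK8KO. In VAV they were 274, 311, 302 and 272, and in WT 217, 181 and 251. DKO_2, DKO_3 and DKO_4 were above all 15 libraries of other genotypes, and DKO_1 lay among them.

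Ccr9 rose in DKO against CDK19KO by 1.37 ± 0.31 on the same log2 scale (SE, limma adjusted p 0.025). It was the only 1 of 9 tested members called higher there, beside 1.34% of all tested genes. It missed the threshold against VAV (1.18 ± 0.31, limma adjusted p 0.0665) and against CDK8KO (1.07 ± 0.31, limma adjusted p 0.0872), where 0.83% and 1.05% of all tested genes were called higher. Without DKO_1 the differences were 1.78, 1.58 and 1.48 against CDK19KO, VAV and CDK8KO, with limma adjusted p of 0.000344, 0.00139 and 0.00234. Without CDK8KO_2 the difference from VAV also passed, at 0.0496. The call against CDK19KO was lost without CDK19KO_1, CDK19KO_2, CDK19KO_3, DKO_2, DKO_3 or DKO_4, with limma adjusted p from 0.0545 to 0.0991. The edgeR quasi-likelihood test on recovered reads placed Ccr9 past the threshold against VAV (1.32, adjusted p 0.0263) and Cd209a short of it (-1.48, adjusted p 0.0577).

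Ccr9 exons overlap those of Slc6a20a, a transporter gene, and AC165425.1 on the other strand, and those of Gm17200 on the same strand. Whether the counting used strand is not stated. Slc6a20a was at 89.4 ± 32.3 normalized counts in DKO (SD, n = 4; 60.6 to 126) and at 194 ± 237 in VAV (SD, n = 4; 38.7 to 548), so that DKO lay within the VAV range. Its means were 399 ± 401 in CDK8KO, 245 ± 61.3 in CDK19KO and 238 ± 31.1 in WT. The part of overlapping reads in the Ccr9 counts was not tested.

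T cell markers were read beside Ccr9 because T lineage cells also carry it. All 8 of the list were higher in DKO than in VAV, with a median log2 difference of 0.81 and none past the threshold. Their normalized counts summed to between 865 and 3119 in the DKO libraries and between 1038 and 1450 in VAV. The sums ran from 877 to 1719 for CDK8KO, from 899 to 1223 for CDK19KO and from 879 to 1842 for WT, with no listed gene at 0 throughout. DKO_1 held the lowest sum. Ccr9 went with the mean log2 level of these markers over the 19 libraries at Pearson r 0.83 (permutation p 7e-05, adjusted over 81 relations 0.00284) and Spearman rho 0.69 (permutation p 0.00143, adjusted 0.0193). It was 0.89 within genotype and 0.67 without DKO_3 and DKO_4. Their part in the Ccr9 result was not tested.

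**Figure D2:**
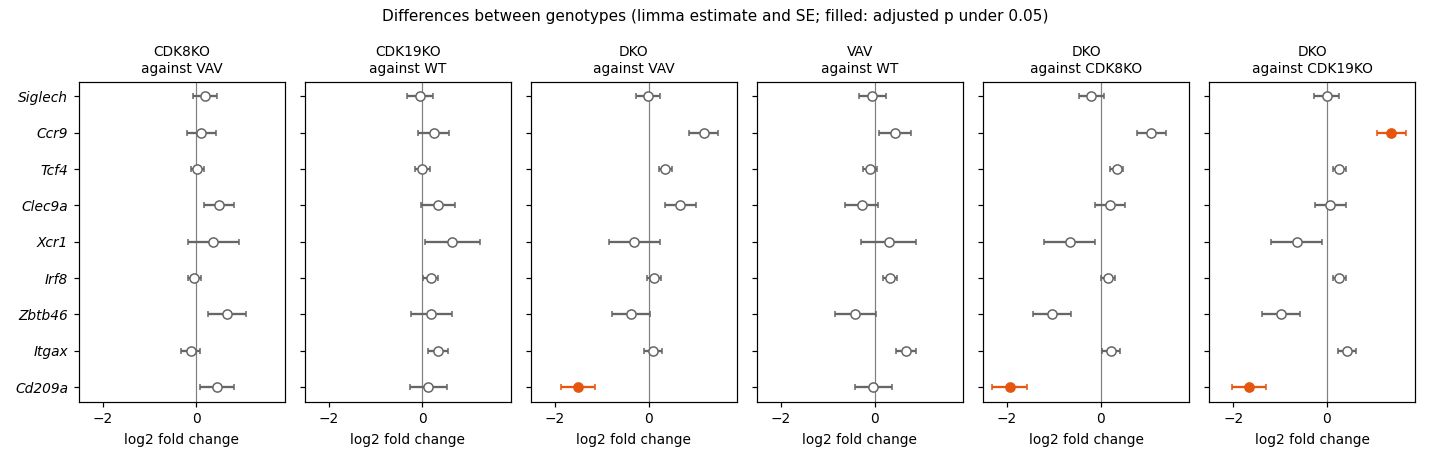
Log2 fold change (horizontal axis, limma estimate with SE) of the 9 tested genes in 6 comparisons of genotypes, with filled points where the adjusted p over all tested genes was under 0.05. Cd209a is filled in the 3 comparisons of DKO and Ccr9 in DKO against CDK19KO.

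Siglech lies on chromosome 7 at 55768178 to 55778925 (plus strand). Its normalized counts were 403, 819, 1026 and 1091 in DKO and 694, 831, 925 and 721 in VAV. They were 772, 661, 1309 and 965 in CDK8KO and 820, 720, 668 and 956 in CDK19KO, and 885, 630 and 968 in WT. The genotypes overlapped, with DKO_1 lowest and CDK8KO_3 highest of all 19. The difference of DKO from VAV was -0.01 ± 0.26 (limma adjusted p 0.985).

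Siglech and Ccr9 moved together within genotypes. After subtraction of genotype means their log2 levels had a Pearson r of 0.96 over the 19 libraries, against 0.52 with genotype means kept, as a description. Siglech with Cd209a gave 0.83 and 0.56, and Siglech with Tcf4 0.75 and 0.53. The ratios to Siglech, formed after the values had been seen, are therefore given as a description with no test. Ccr9 per Siglech was 0.702 to 0.947 in the 4 DKO libraries and 0.246 to 0.395 in the 15 others, so that DKO_1 joined the other DKO libraries. Cd209a per Siglech was 0.0577 to 0.0751 in DKO and 0.137 to 0.292 in the others. Neither ratio overlapped. For Irf8, which is read in many more cells, the ratio was 3.95 to 8.53 in DKO and 2.89 to 4.99 in the others, and these overlapped. The ratios of Tcf4 (4.87 to 9.10 in DKO, 3.35 to 5.74 in the others), Clec9a (0.108 to 0.298, 0.0719 to 0.200) and Itgax (0.315 to 0.671, 0.178 to 0.674) overlapped as well.

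**Figure D3:**
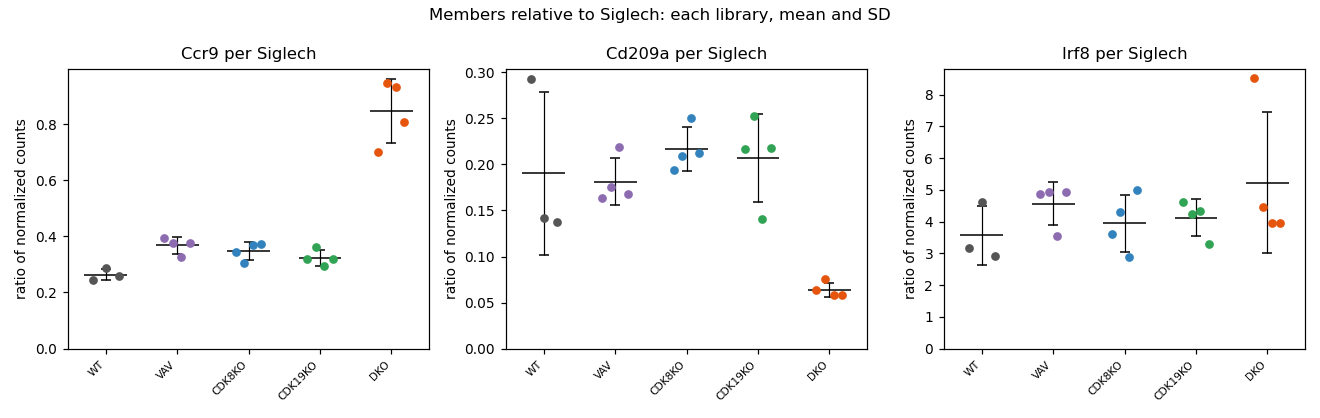
Ratio of normalized counts (vertical axes, from 0) of Ccr9, Cd209a and Irf8 to Siglech in each library (points), with mean (bar) and SD (whiskers) by genotype. The DKO libraries stand apart for Ccr9 (0.702 to 0.947) and Cd209a (0.0577 to 0.0751) and overlap the others for Irf8. The ratios were formed after the values had been seen and were not tested.

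Genes most like Siglech over the libraries were H2-Ab1 (Pearson r 0.84, within genotype 0.86), Havcr1 (0.83, 0.89), Cd5 (0.83, 0.86) and H2-Aa (0.81, 0.87). H2-Ab1 and H2-Aa encode class II chains that B cells and dendritic cells carry, and Cd5 marks T cells and some B cells. The mean log2 level of the 8 T cell markers went with Siglech at Pearson r 0.71 (permutation p 0.00037, adjusted over 81 relations 0.00749) and Spearman rho 0.86 (permutation p 2e-05, adjusted 0.00081). Within genotype r was 0.92, and without DKO_3 and DKO_4, the libraries farthest from the median, it was 0.67. Siglech went with other lymphocyte lists as well: r was 0.79 with NK markers (permutation p adjusted over the 81 relations 0.00405; rho 0.71, adjusted 0.0146) and 0.66 with mature B cell markers (adjusted 0.0274; rho 0.79, adjusted 0.00432). With B cell precursor markers r was 0.51 (adjusted 0.144) and rho 0.75 (adjusted 0.0077). The part of these cells in the Siglech level was not tested.

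Tcf4, the E protein of plasmacytoid cells, was at 3672, 3986, 5465 and 5510 normalized counts in DKO and at 3530, 3836, 3565 and 3414 in VAV. Group means elsewhere were 3652 in CDK8KO, 3838 in CDK19KO and 3873 in WT. DKO_3 and DKO_4 were the highest of all, while the other DKO libraries lay within the range of the rest. The difference from VAV was 0.35 ± 0.14 (limma adjusted p 0.239).

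The plasmacytoid list beyond the members held 15 genes, all tested, and none passed in DKO against VAV. Of these 9 were higher and 6 lower, with a median of 0.03 beside -0.01 over all tested genes. The interferon regulator Irf7 was at 758 ± 59.2 in DKO, 552 ± 49.3 in VAV and 420 ± 103 in CDK8KO (SD, n = 4). It rose in DKO against CDK8KO by 0.88 ± 0.18 (limma adjusted p 0.0161) and not past the threshold against VAV (0.46, limma adjusted p 0.225). Lag3, an inhibitory receptor, rose in DKO against CDK19KO by 1.52 ± 0.38 (limma adjusted p 0.0437). Bst2, the antigen of plasmacytoid cell antibodies, differed from VAV by 0.48 ± 0.28 (limma adjusted p 0.414) and Spib, a factor of the same lineage, by 0.01 ± 0.38 (limma adjusted p 0.993).

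Among the genes of type 1 conventional cells, none of the members passed in any comparison. Clec9a, the receptor for dead cells, had normalized counts of 120, 171, 111 and 196 in DKO and 113, 59.8, 157 and 62.9 in VAV. Other libraries spanned 73.9 to 211, and all genotypes overlapped. The difference of DKO from VAV was 0.68 ± 0.33 (limma adjusted p 0.321). Clec9a shares exonic positions with Clec1b on the same strand, a platelet lectin whose group means were 356 to 599 normalized counts.

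Xcr1, the chemokine receptor for Xcl1, was low throughout, at 3.0 to 44.9 normalized counts. Its difference between DKO and VAV was -0.30 ± 0.54 (limma adjusted p 0.822). Batf3 was at 0 to 6.0 normalized counts, from 0 to 7 reads, and no difference was detectable at this depth. A count of 0 allows up to 3 reads, for counting error only. The genes most like Clec9a were Olfr1356 (Pearson r 0.83), Krtcap3 (0.78), Kif13b (0.78) and Tedc1 (0.75).

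Of the 12 other type 1 genes, 1 was called higher in DKO against VAV, Cd8a. It was at 450 ± 165 in DKO and at 119 ± 24.9 in VAV (SD, n = 4), a difference of 1.83 ± 0.34 (limma adjusted p 0.00753). Cd8a is also the CD8 chain of T cells, and the T cell markers above were higher with it, whose part was not tested. Naaa, a lysosomal amidase, was at 1746 ± 137 in DKO and 851 ± 52.4 in CDK19KO, a rise of 1.03 ± 0.23 (limma adjusted p 0.0202), while VAV stood at 1291 ± 404. Cadm1, an adhesion molecule, and Wdfy4, which is needed for cross-presentation, did not pass against VAV, with means of 260 and 8596 in DKO and 226 and 7656 in VAV.

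Zbtb46, a zinc finger factor of conventional dendritic cells, had normalized counts of 103, 110, 113 and 74.9 in DKO. It was at 447, 210, 147 and 127 in CDK8KO and at 128, 199, 329 and 178 in CDK19KO. In VAV it was at 131, 58.3, 275 and 132 and in WT at 169, 189 and 162. DKO lay below every CDK8KO and CDK19KO library and overlapped VAV, and how many of all tested genes stood apart in this way was not counted. None of these differences passed: -1.04 ± 0.40 against CDK8KO (limma adjusted p 0.202), -0.98 ± 0.40 against CDK19KO (0.244) and -0.38 ± 0.40 against VAV (0.684). With limma array weights the difference from CDK19KO passed, at 0.0463, in a fit that called 8.95% of all tested genes there, beside 2% without weights.

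Zbtb46 followed the red cell markers. Its Pearson r with the mean log2 level of 14 erythroid markers was 0.89 and its Spearman rho 0.88, each with a permutation p of 1e-05, the smallest that 100000 resamples can give, and 0.00081 after adjustment over 81 relations. It was 0.83 within genotype and 0.80 without CDK8KO_1 and VAV_2. Normalized counts of the erythroid markers summed to between 32432 and 94732 in DKO and between 28364 and 746596 in VAV. The sums ran from 94427 to 873465 for CDK8KO, from 122241 to 312849 for CDK19KO and from 129371 to 230541 for WT. Their part in the Zbtb46 levels was not tested. The DKO sums lay below all of CDK19KO and nearly all of CDK8KO, so a covariate cannot tell red cell level and genotype apart there. With the mean log2 erythroid level as a covariate, the Zbtb46 difference of DKO was -0.21 against CDK8KO, -0.21 against CDK19KO and -0.14 against VAV. Under the same covariate Cd209a differed by -1.82, -1.54 and -1.46 and Ccr9 by 1.13, 1.42 and 1.19. Neither then passed against CDK19KO (limma adjusted p 0.0983 and 0.066), while both passed against VAV (0.0315 and 0.036). This fit called 0.916% of all tested genes against CDK19KO and 4.3% against VAV, beside 2% and 1.52% without the covariate.

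**Figure D4:**
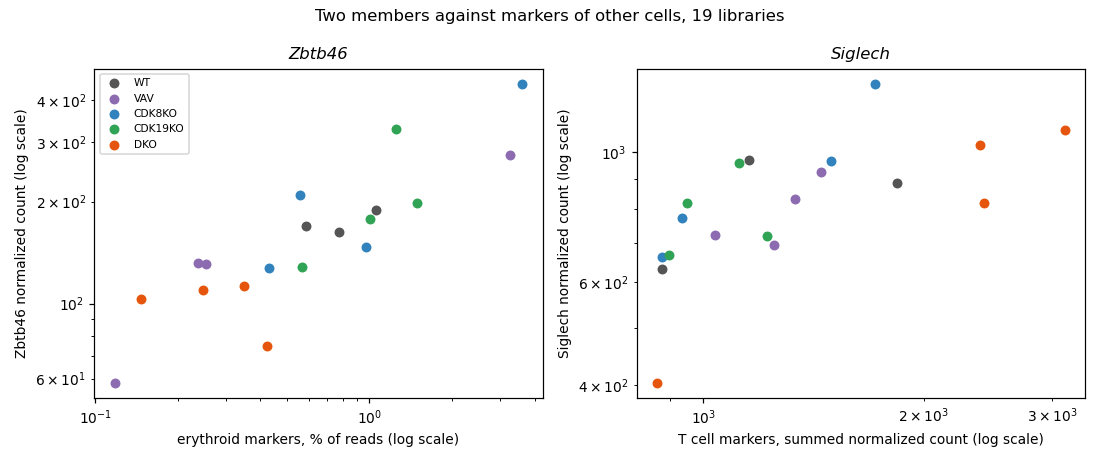
Normalized count (log axis) of Zbtb46 against the share of reads in erythroid markers (log axis), and of Siglech against the summed normalized count of T cell markers (log axis), in 19 libraries coloured by genotype. Both rise along the horizontal axis, with r of 0.89 and 0.71 on the mean log2 level of each list.

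Irf8 lies on chromosome 8 at 120736358 to 120756694 and Itgax, the integrin chain CD11c, on chromosome 7 at 128129547 to 128150657. Irf8 means were 3871 ± 394 in DKO, 3579 ± 359 in VAV, 3554 ± 955 in CDK8KO and 3227 ± 388 in CDK19KO (SD, n = 4) and 2845 ± 54.8 in WT (SD, n = 3). Itgax means were 364 ± 74.0, 344 ± 90.1, 313 ± 66.1, 267 ± 24.7 and 212 ± 37.9 in the same order. The WT mean was the lowest of the 5 for both. All 3 WT libraries were below every VAV library for Irf8, Itgax and Ccr9, while single CDK8KO or CDK19KO libraries lay as low as WT. For Itgax the gap was only from 248 to 251 normalized counts. How many of all tested genes stood apart in this way was not counted. An unadjusted limma p under 0.05 was reached by 2068 of 13976 genes. Vav-iCre alone gave 0.33 ± 0.16 for Irf8 (limma adjusted p 0.342), 0.68 ± 0.21 for Itgax (0.174) and 0.43 ± 0.33 for Ccr9 (0.56). None of the 9 passed in VAV against WT, where 0.093% of all genes did and 0.0716% were called higher. DKO against VAV gave 0.11 ± 0.15 for Irf8 (limma adjusted p 0.746) and 0.09 ± 0.20 for Itgax (0.855).

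With either kinase gene targeted alone, no member passed. In CDK8KO against VAV the 9 estimates ran from -0.12 to 0.66 with a median of 0.19, and 0% of all genes were called: limma called 0 genes (1161 at an unadjusted p under 0.05), edgeR 0 and DESeq2 1. In CDK19KO against WT they ran from -0.06 to 0.63 with a median of 0.18, and 0.0215% of all genes, 3 in number, were called. Medians of all tested genes were -0.0045 and 0.001.

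**Figure D5:**
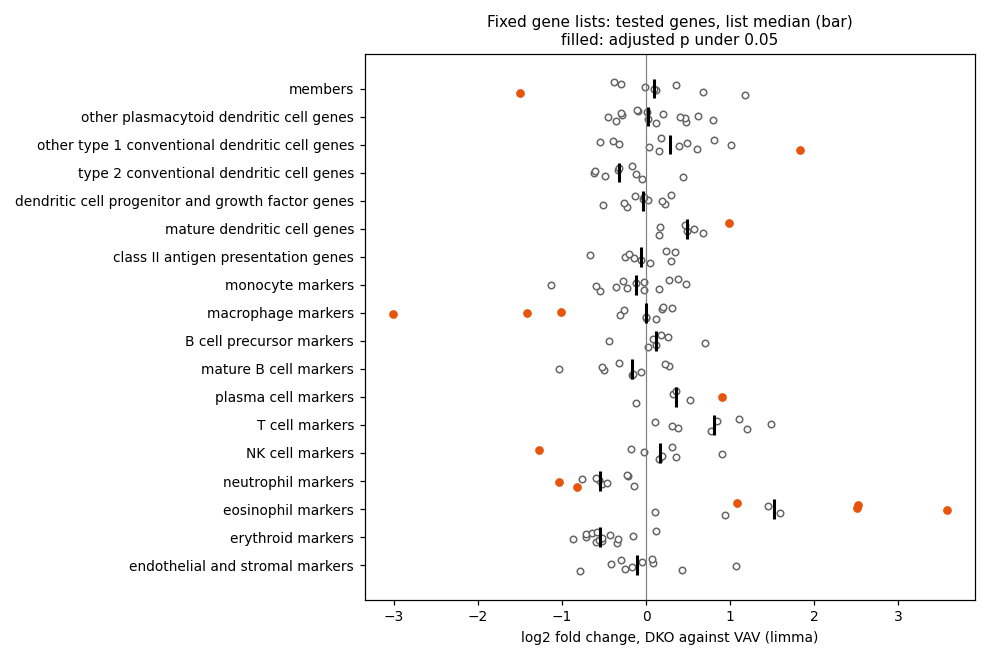
Log2 fold change of DKO against VAV (horizontal axis) for each tested gene of the lists (points, filled where the limma adjusted p was under 0.05), with each list median as a bar. The dendritic cell lists centre between -0.32 and 0.48, with single genes filled.

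Lists of other dendritic cell states showed few calls in DKO against VAV, beside 1.52% of all tested genes called in either direction. Type 2 conventional genes had 8 of 9 lower with a median of -0.32 and none past the threshold. Progenitor and growth factor genes had 0 of 10 called and a median of -0.03, with the receptor Flt3 at 608 ± 57.6 in DKO and 733 ± 120 in VAV. Class II presentation genes had 0 of 9 called and a median of -0.06. Mature cell genes had all 7 tested higher with a median of 0.48, and 1 of them, the cytokine signal inhibitor Socs2, rose by 0.98 ± 0.23 (limma adjusted p 0.0354). Cd80, a costimulatory ligand, rose in DKO against CDK8KO by 0.91 ± 0.22 (limma adjusted p 0.0439), as did Tmem176a, a membrane protein of the class II list, by 0.97 ± 0.21 (limma adjusted p 0.0196).

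Other myeloid and NK genes were read beside Cd209a, which macrophages and monocytes can carry as well. None of 13 monocyte markers passed in DKO against VAV, with a median of -0.11. Of 11 macrophage markers 3 were called lower: the haemoglobin scavenger receptor Cd163, at 67.0 ± 12.2 in DKO and 550 ± 117 in VAV, Cd5l (-1.42) and Hmox1 (-1.01). The macrophage list summed to 17638 to 27486 in DKO and 20290 to 25531 in VAV. Cd209a went with its mean log2 level over the 19 libraries at Pearson r 0.66 (permutation p 0.00198, adjusted over 81 relations 0.0267) and Spearman rho 0.57 (permutation p 0.0128, adjusted 0.0882). It was 0.31 within genotype and 0.69 without CDK19KO_3 and DKO_1. The permutations ignored genotype, so a shift in DKO shared by Cd209a and the list enters these p-values. The within-genotype r of Cd209a was higher for lymphocyte lists: 0.91 with T cell, 0.82 with NK, 0.58 with mature B cell and 0.34 with B cell precursor markers. Over all 19 libraries r was -0.00011, 0.41, 0.61 and 0.20 in the same order. With monocyte markers the r of Cd209a was 0.063 over all libraries and -0.017 within genotype. Its within-genotype r was 0.83 with Siglech and 0.79 with Ccr9. With mature B cell markers the adjusted permutation p was 0.053 for r and 0.0812 for rho (0.60). Of 8 NK markers, Ncr1 fell by 1.28 ± 0.30 (limma adjusted p 0.0384), while 5 of the 8 were higher in DKO. All 8 eosinophil markers were higher in DKO than in VAV, with 4 past the threshold and a median of 1.52, and they summed to 4374 to 19397 in DKO and 2063 to 3823 in VAV. All 10 neutrophil markers were lower, with 2 past the threshold (Mmp8 and Camp) and a median of -0.54. The part of these cells in the Cd209a result was not tested.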

How the data were processed

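Per the labels' protocols, Trizol RNA of the 19 samples went into Kapa mRNA Hyper libraries for paired-end NovaSeq X sequencing. The submitters' processing notes name Salmon 1.4.0, DESeq2 and mm10, without saying what each did. Each deposited value is a signal, the gene count that the authors divided by the size factor of its library (a normalized count). In all libraries 100% of values were whole multiples of 1 step (tolerance 0.001 read), so whole reads were recovered. IDs of 34415 of 34432 genes were in GENCODE vM21, and 11764 genes had no reads. No 2 libraries of a genotype were duplicates (lowest chi-square per degree of freedom 14.7).

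For 13976 genes (mean normalized count 10 or more), log2(normalized count + 1) was fitted with limma 3.58.1 (lmFit, contrasts.fit and eBayes with trend, R 4.3.3), using the 5 genotypes together without covariates. P-values were adjusted by Benjamini-Hochberg over all tested genes within each of 7 comparisons, with 0.05 as the threshold. The fit was tested on simulated data. Exact permutation was used for the targeted genes (two-sided; with 4 against 4 it cannot go below 0.0286). Alternatives included edgeR 4.0.16, DESeq2 1.42.0, voom, other pseudocounts and filters, and each library left out. For relations with marker lists, all 19 libraries were permuted without regard to genotype. A difference between genotypes that gene and list share therefore enters those p-values.

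The members, lists and tests were chosen with earlier results of these data known. Named genes are all members, the called genes of each list (at most 4 per list and comparison) or its defining genes, and the 4 genes most like Siglech, Clec9a and Cd209a. Motifs were searched on both strands of RefSeq promoters. A count of 0 allows up to 3 reads; this floor covers counting error only.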

Additional observations from a re-analysis of the deposited data

Results flagged for a closer look

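In 4 of the 40 sets of 4 libraries examined (10 genes in 4 genotypes), 1 library stood far from the other 3; chance alone gives about 1 in 20. Cd209a was at 25.7 normalized counts (31 reads) in DKO_1 and at 60.0 to 62.9 in the other DKO libraries. Clec9a was at 211 in CDK8KO_3 and at 106 to 109 in the others of that genotype. Tcf4 was at 4385 in CDK8KO_3 and at 3323 to 3484 in the others. Batf3 was at 5.1 (7 reads) in VAV_2 and at 1.7 to 1.8 in the others, too few reads to tell apart.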

How the results depend on the processing

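The fall of Cd209a in DKO kept its direction in every alternative run. It passed in 13 of 35 against VAV (-1.61 to -1.19, adjusted p 0.00505 to 0.118), 32 of 33 against CDK8KO and 26 of 33 against CDK19KO. These 35, the same for Ccr9 below, include a run with WT and a run with WT and VAV pooled in place of VAV. Cd209a did not pass in the run with WT. Ccr9 was higher in DKO in every alternative run and passed in 25 of 33 against CDK19KO, 7 of 35 against VAV and 2 of 33 against CDK8KO. In DKO against VAV, 1 member passed; 2 passed with DESeq2, with the erythroid covariate and with WT and VAV pooled, and 0 with voom, no filter, only the compared groups, array weights, and with either CDK19KO_4 and DKO_4 or CDK8KO_1 and VAV_3 left out (pairs chosen after the data were seen). Leaving out 1 library gave 0 to 2. Against CDK8KO (1), DESeq2 gave 2, only the compared groups 0 and leaving out 1 library 1 to 2. Against CDK19KO (2), voom gave 1, the erythroid covariate 0, CDK19KO_4 and DKO_4 left out 0, and 1 library left out 0 to 2. The interaction (0) had 1 with DESeq2. In DKO against VAV, 2 of 9 members (Siglech and Xcr1, neither called) changed sign under edgeR and DESeq2. The causes were not tested. With edgeR the 1 member past the threshold there was Ccr9 in place of Cd209a. For all genes, edgeR called 200, DESeq2 516 and limma with the erythroid covariate 601 in DKO against VAV, where the main limma fit called 213. With the replicate number as a block, 0 members passed in DKO against VAV, 1 against CDK8KO and 2 against CDK19KO; the numbers did not pair libraries (correlations of -0.274 to 0.306, 6 of 36 over 0.1; 4 of 19 libraries correlated best with their own number). The Cdk19 log2 ratio in DKO was -1.73 to -1.56 with 1 library left out, where no exact p can pass, and Cdk8 in CDK8KO ran from -0.114 to 0.193, turning negative without VAV_2 (-0.0676), VAV_4 (-0.0273) or CDK8KO_1 (-0.114). No library passed 0.1% muscle reads, so that alternative was not run. Batf3 and Xcr1 were limited by depth.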
